A study of Mus musculus with 16 samples.

Results

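The genes described here are 40 interferon-stimulated and major histocompatibility complex (MHC) class I genes, read from the RNA-seq counts of primary hippocampal neurons. They were taken as a list of names: 4 transcription factors, 3 RNA sensors, 10 antiviral effectors, 6 genes of ISG15 conjugation, ubiquitin transfer and ADP-ribosylation, 5 interferon-inducible GTPases, 4 other interferon-inducible genes and 8 genes of class I antigen presentation. Each of the 40 stood among the 48397 gene symbols counted in every library, and each of the 40 was among the 17038 genes with enough reads to be tested. The neurons came from wild type CD1 mouse pups at P0 to P2, received cytosine-β-D-arabinoside on day 3 in vitro (DIV) to hold back dividing cells, and were collected at 17 DIV. At 10 and 13 DIV they were given 10-fold concentrated medium of immortalized astrocytes. The control neurons received medium of Apoe-/- astrocytes, which make no apoE, and the apoE2, apoE3 and apoE4 neurons received medium of astrocytes homozygous for the human allele of that name. Each of the 4 groups has 4 libraries, numbered 1 to 4, and the study asked how lipoproteins of each isoform change neuronal transcription. All of the donor astrocytes were kept with 25-hydroxycholesterol and without serum while they conditioned the medium. The source of the medium is therefore an astrocyte line in all 4 groups, and the groups differ both in apoE and in the line that made the medium. The study describes the 4 libraries of a group as coming from separate neuronal cultures, and what a shared number stands for is not stated.

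Interferons are secreted proteins that bind receptors on the cell surface and, through the kinases Jak1 and Tyk2, activate transcription factors, among them Stat2 and its partner Irf9, that turn on the interferon-stimulated genes. Many of these genes block virus replication, and others load peptides onto class I molecules for display to T cells. In the brain, neurons keep a low level of class I molecules and of many of these genes, while astrocytes and microglia respond strongly to interferon. Stat2 and Irf9 act at the interferon-stimulated response element (ISRE), a repeat of GAAA, and many genes that respond to interferon gamma carry the gamma-activated site (GAS), a palindrome of TTC and GAA.

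A RefSeq promoter window on GRCm38.p6, from 250 bases before to 50 bases after the start site, was found for 32 of the 40 genes. Usp18, Mx1, Mx2, Ifi27, Dhx58, Parp9, Parp14 and Tap2 were without one, and 5 genes had 2 windows. The ISRE-type repeat GAAANNGAAA, searched on both strands, was in a window of 16 of the 32 genes (50.0%), against 3.99% of the 27025 genes with a window. The GAS-type palindrome TTCNNNGAA was in a window of 9 of the 32 (28.1%), against 9.55% of all genes. Of the 24 matches to the repeat, 21 began upstream of the start site, and their first bases lay between -222 and 33 from it. The repeat overlaps itself in Isg15, Bst2, Oas1a, Gbp3 and Irgm1, and in Bst2 the palindrome overlaps the repeat. A match gives letters in a window and does not show that a factor binds there. The windows printed here are those of Isg15 and Bst2, with overlapping repeats, of Ifit1, the gene that differed most between replicates 4 and 2, of B2m, a class I gene with 1 repeat, and of Tapbp, a class I gene with neither motif. They are written 5′ to 3′ on the strand of the gene, with each match to the ISRE-type repeat or its reverse complement in capitals. The RefSeq start site of Tapbp lies downstream of the first base of the gene in GENCODE.
Isg15 (chr4:156200769-156201068, minus strand): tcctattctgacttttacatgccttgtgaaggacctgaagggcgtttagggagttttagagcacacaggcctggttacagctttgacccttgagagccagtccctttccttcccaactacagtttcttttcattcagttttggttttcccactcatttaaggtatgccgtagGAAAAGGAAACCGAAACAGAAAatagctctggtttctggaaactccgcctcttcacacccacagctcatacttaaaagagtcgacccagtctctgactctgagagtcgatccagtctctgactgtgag
Bst2 (chr8:71537423-71537722, minus strand): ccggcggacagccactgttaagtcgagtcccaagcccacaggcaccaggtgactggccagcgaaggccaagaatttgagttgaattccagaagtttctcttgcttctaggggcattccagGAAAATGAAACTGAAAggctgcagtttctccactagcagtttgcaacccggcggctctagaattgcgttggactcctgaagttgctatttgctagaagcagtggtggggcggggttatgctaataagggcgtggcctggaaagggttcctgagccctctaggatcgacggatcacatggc
Ifit1 (chr19:34640639-34640938, plus strand): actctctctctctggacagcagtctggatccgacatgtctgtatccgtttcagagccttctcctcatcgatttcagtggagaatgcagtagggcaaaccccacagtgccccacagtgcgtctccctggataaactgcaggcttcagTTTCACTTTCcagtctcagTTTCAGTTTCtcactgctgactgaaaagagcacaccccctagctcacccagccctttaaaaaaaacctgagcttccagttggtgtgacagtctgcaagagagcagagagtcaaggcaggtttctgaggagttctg
B2m (chr2:122147437-122147736, plus strand): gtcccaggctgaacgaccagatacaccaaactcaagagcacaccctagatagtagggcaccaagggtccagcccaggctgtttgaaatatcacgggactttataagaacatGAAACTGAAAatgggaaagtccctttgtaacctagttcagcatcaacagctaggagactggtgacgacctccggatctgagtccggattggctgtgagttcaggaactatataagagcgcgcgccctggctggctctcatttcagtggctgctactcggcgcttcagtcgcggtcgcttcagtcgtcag
Tapbp (chr17:33919228-33919527, plus strand): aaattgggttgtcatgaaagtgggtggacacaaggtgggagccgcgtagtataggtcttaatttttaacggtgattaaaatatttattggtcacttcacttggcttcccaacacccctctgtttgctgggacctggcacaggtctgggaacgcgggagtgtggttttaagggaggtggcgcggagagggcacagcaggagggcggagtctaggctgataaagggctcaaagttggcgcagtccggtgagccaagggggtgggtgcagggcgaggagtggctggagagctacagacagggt

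**Figure D1:**
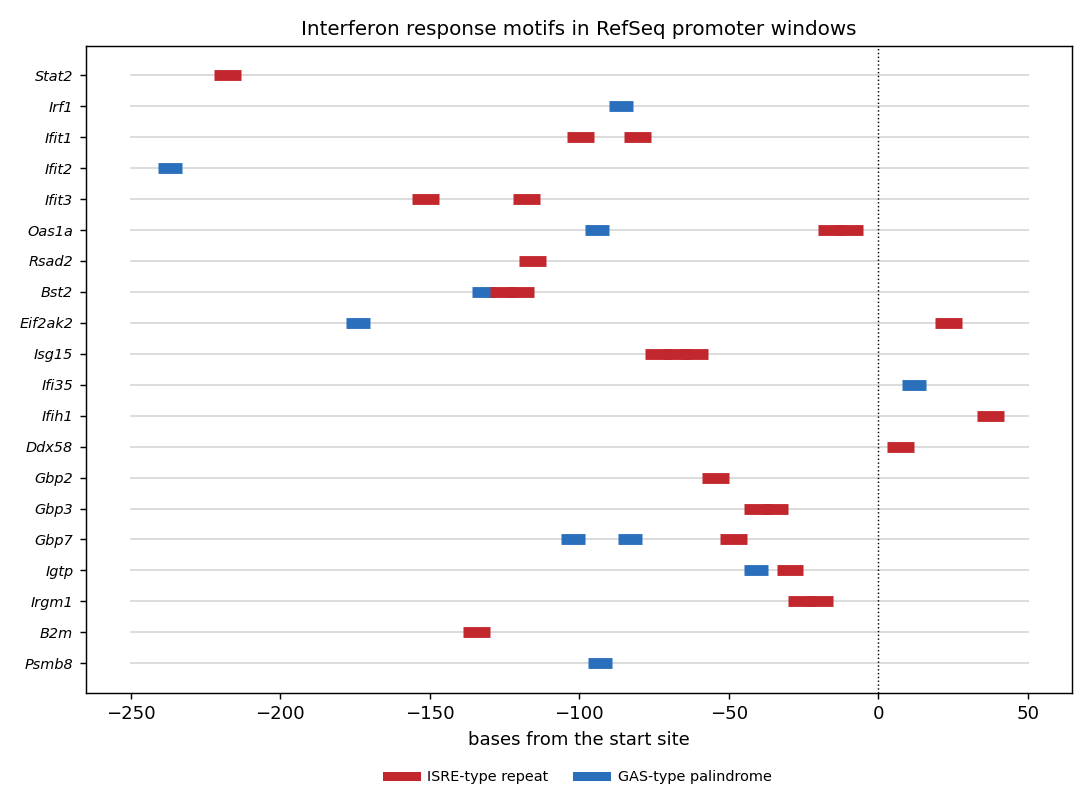
Position of each motif match in the promoter windows of the 20 genes that hold 1 or both motifs, in bases from the start site, with the grey line as the window. Red marks the ISRE-type repeat (16 genes) and blue the GAS-type palindrome (9 genes), and 21 of the 24 red marks begin upstream of the start.

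The libraries held 14087723 to 34248172 reads on genes (median 22221832), and the 40 genes together took 6961 to 26287 of them, which is 0.0268 to 0.138% of a library. Levels are CPM, the reads of a gene per 1000000 gene reads of a library after TMM scaling, unless stated otherwise. Neuronal markers were high throughout: the summed level of 8 neuron markers was 2876 to 7273 CPM, with each of the 8 over 1 CPM in each library. Markers of other cells were detected too. The 8 astrocyte markers summed to 528 to 6113 CPM, again with each marker over 1 CPM in each library, and the 10 microglia markers summed to 15.3 to 93.9 CPM, with 4 of 10 over 1 CPM in each library. The sums were 107 to 845 CPM for oligodendrocyte lineage markers, 22.2 to 306 CPM for mural and fibroblast markers, 27.4 to 355 CPM for choroid plexus and ependyma markers and 1.13 to 4.07 CPM for endothelial markers. In such bulk RNA, fewer cells of a type and less RNA per cell cannot be told apart.

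By control level per kilobase of exon, the class I genes B2m, H2-D1, H2-K1 and Tapbp ranked 1, 2, 4 and 5 of the 40. The class I genes Tap1, Tap2, Psmb9 and Psmb8 ranked 9, 16, 28 and 35. In the control libraries B2m, the light chain of every class I molecule (chr2:122147686-122153083, plus strand), had 74.6 ± 43.3 CPM per kilobase of exon (SD, n = 4), the heavy chains H2-D1 and H2-K1 had 36 ± 16.2 and 10.03 ± 6.61, and Ifi27, an interferon-inducible protein of the mitochondrial and nuclear membranes, had 21.1 ± 13.4. Tapbp, or tapasin, which holds class I molecules at the peptide transporter (chr17:33915899-33929292, plus strand), had 7.4 ± 2.18 CPM per kilobase. Below these came Irf9 at 3.96 ± 2.31, Eif2ak2 at 3.79 ± 1.93 and Stat2 at 3.47 ± 0.759 CPM per kilobase, whose SDs overlap, so that their order is not resolved. In the role groups not yet named, the highest levels per kilobase were those of Isg15 (3.15 ± 3.01), Gbp2 (2.34 ± 2.54) and the RNA sensor Ddx58, or RIG-I (1.13 ± 0.747). The lowest of the 40 was Mx1, an antiviral GTPase, with 0.131 ± 0.0815 CPM per kilobase.

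The genes lie on 14 chromosomes and partly in clusters. Chromosome 17 carries 8 of them, 7 of which (Tap1, Tap2, Tapbp, Psmb8, Psmb9, H2-D1 and H2-K1) belong to the MHC, and chromosome 11 carries 7. Ifit1, Ifit2 and Ifit3 are neighbours on chromosome 19, Gbp2, Gbp3 and Gbp7 on chromosome 3, and Parp9, Parp14 and Dtx3l on chromosome 16. Exons of 5 genes overlap exons of another counted gene over more than 10% of their length (Ifi35, Gbp7, Tap2, Tapbp and Psmb8). For Tapbp the overlap was 24.9% of exon length on the opposite strand and for Ifi35 16.8%. Whether reads were counted by strand is not stated, so how reads in these overlaps were counted or left out is not known. Near-identical relatives (Ifit3 and Ifit3b, Oas1a and its paralogs, Gbp3 and Gbp7, the H2 heavy chains) can share reads, which makes their separate levels uncertain.

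Libraries of the same replicate number were alike in these genes, more than libraries of the same treatment. For each member the share of variance in log2 CPM that lay between replicate numbers was larger than the share between treatments, in 40 of 40 members against 82.0% of all tested genes. The median share between numbers was 78.9% for the members and 56.1% for all tested genes, while the median share between treatments was 10.1% and 14.4%. A mean over the 40 genes of the log2 deviation from each gene's own mean was -1.47, -1.52, -1.23 and -1.22 in the replicate 2 libraries of control, apoE2, apoE3 and apoE4. In replicate 3 it was -0.39, -0.46, -0.33 and 0.25, and in replicate 4 it was 0.90, 0.37, 1.28 and 1.62, in the same order. Replicate 1 was split, with -0.40 in the control library and 0.99, 0.39 and 1.21 with apoE2, apoE3 and apoE4. Replicate 2 was thus lowest in each treatment, and the replicate 4 library was highest in each treatment but apoE2, where replicate 1 stood above it.

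**Figure D2:**
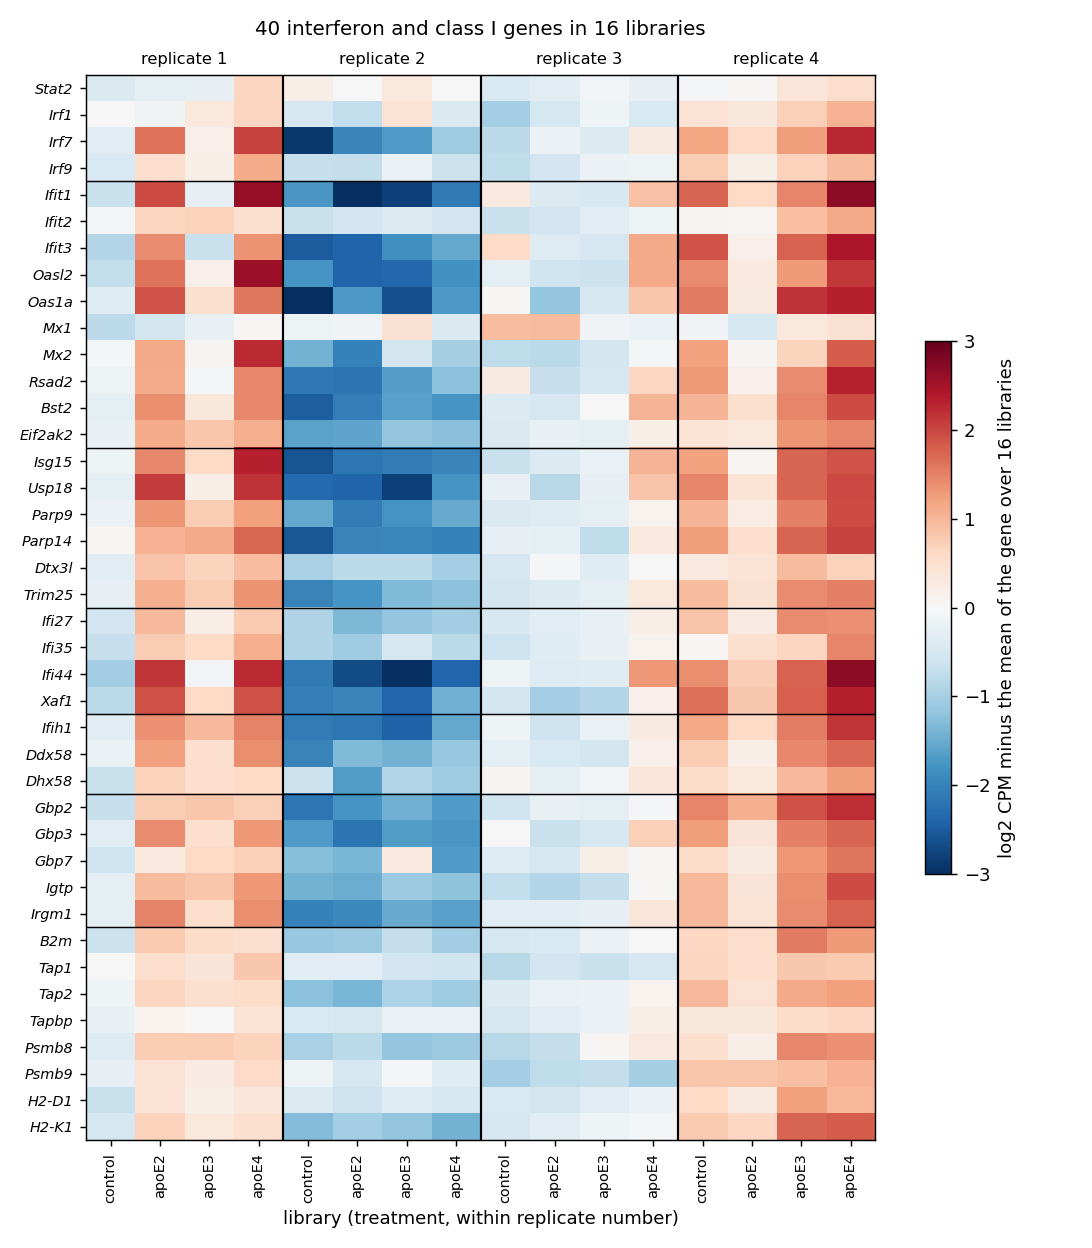
Log2 CPM of each of the 40 genes (rows, ordered by role) in the 16 libraries (columns, by replicate number and then treatment), as the difference from the mean of the gene, with blue below and red above it and the colours ending at 3 log2 units. The 4 libraries of replicate 2 are blue for nearly every gene and those of replicate 4 red, and in replicate 1 the apoE2 and apoE4 libraries are redder than the control library.

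The 4 replicate 4 libraries were all above the 4 replicate 2 libraries in 36 of the 40 members, against 25.3% of all tested genes, and the median difference between the 2 sets was 2.48 on the log2 scale for the members and -0.01 for all genes. It was largest in Ifit1 and Ifi44, both named here after their values were seen. Ifit1, which blocks translation of viral RNA, had 0.382 to 1.73 CPM in the replicate 2 libraries and 9.07 to 39 in the replicate 4 libraries, a ratio of 18.5 between the means on the log scale. Ifi44, an interferon-inducible gene of unsettled function, had 0.123 to 0.322 and 2.9 to 11.3 CPM. Transcription factors and antigen presentation genes spread less, with a median difference of 1.08 over 4 and 1.57 over 8 genes. It was 3.15 over the 10 antiviral effectors and 3.17 over the 6 genes of ISG15, ubiquitin and ADP-ribosylation. Tapbp had 21 to 26.2 CPM in replicate 2 and 38.3 to 46.7 in replicate 4. The 16 members with the ISRE-type repeat in a window had a median difference of 3.07, the 16 with a window but no repeat 1.48 and the 8 without a window 2.15. These medians over chosen genes are a description only.

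Most members varied together across libraries. Pearson's r of a member with the mean of the other members over the 16 libraries, which share replicate numbers and are not independent, had a median of 0.960, and 36 of 40 members were over 0.8. Mx1 (0.011), Stat2 (0.28), Psmb9 (0.68) and Irf1 (0.70) were the exceptions. Of the 40 tested genes whose pattern was most like the mean deviation of all 40 members, 20 were members, which are part of that mean, and Lgals3bp, Gbp9 and Herc6 (r = 0.98 each), which also respond to interferon, were the first that are no members. Genes not known as interferon-stimulated were among the 40 too, such as Sox21, Gstk1, Apoe, Pdk4, Slc25a18, Evc2 and Nwd1 (r = 0.97).

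Markers of other cells moved with the replicate numbers as well. The astrocyte sum was 528 to 816 CPM in replicate 2, 1401 to 2412 in replicate 3, 1328 to 3874 in replicate 1 and 2507 to 6113 in replicate 4. The microglia sum was 24.7 to 30.1 CPM in replicate 2, 15.3 to 21 in replicate 3, 25.7 to 42.7 in replicate 1 and 49.6 to 93.9 in replicate 4. Astrocyte markers, like the 40 genes, had their lowest values in replicate 2 and their highest in replicate 4, while the lowest microglia values were in replicate 3. Between replicates 2 and 4, the sum also differed for mural and fibroblast markers (24 to 26.9 against 108 to 306 CPM), choroid plexus and ependyma markers (27.4 to 35.2 against 161 to 355 CPM) and oligodendrocyte lineage markers (107 to 139 against 332 to 787 CPM). The neuron sum went the other way, with 6233 to 6685 CPM in replicate 2 and 2876 to 4406 in replicate 4. Within replicate 1, the apoE3 library had the most astrocyte marker RNA (3874 CPM, against 2632 with apoE2 and 2592 with apoE4). It had the lowest mean of the 40 genes among the 3 apoE libraries. The part of these cells in the level of the 40 genes was not tested.

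**Figure D3:**
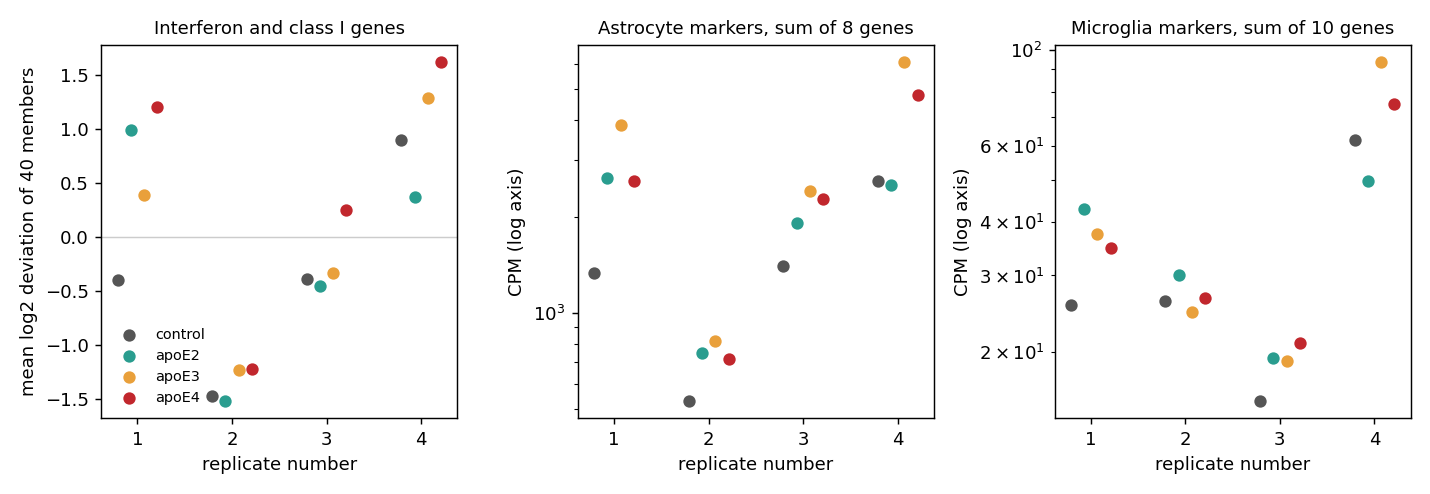
Mean log2 deviation of the 40 genes (left), summed CPM of 8 astrocyte markers (middle, log axis) and of 10 microglia markers (right, log axis) in each library, by replicate number and coloured by treatment. Replicate 2 is lowest for the 40 genes (-1.52 to -1.22) and for astrocyte markers (528 to 816 CPM), and the highest value in each panel is a replicate 4 library.

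Against the control, the fold changes of the 40 genes over all 16 libraries were mostly above 0 with each isoform and highest with apoE4 by the median, but without regard to replicate numbers none passed an adjusted p under 0.05. The median log2 fold change stood at 0.22 with apoE2 (35 of 40 genes above 0), 0.48 with apoE3 (35 of 40) and 0.92 with apoE4 (39 of 40, with Mx1 at -0.15 as the one below), against 0.01, 0.02 and 0.002 over all tested genes. Single libraries turned or moved these medians. The apoE2 median was -0.22 without apoE2 replicate 1 and -0.00065 without control replicate 2, 0.087 and 0.12 without control replicates 1 and 3, 0.82 without control replicate 4, and 0.53 and 0.38 without apoE2 replicates 2 and 3. The apoE3 median was -0.12 without apoE3 replicate 4, 0.17 without control replicate 2, 0.73 without apoE3 replicate 2 and 1.01 without control replicate 4. The apoE4 median stayed above 0 without any 1 library, at 0.45 without apoE4 replicate 4 and 1.51 without control replicate 4. The 3 comparisons share the control libraries. At an adjusted p under 0.05 in edgeR's quasi-likelihood test, 0 of 40 members passed with apoE2 (0% of all tested genes), 0 with apoE3 (0.00587%) and 0 with apoE4 (0.194%), and an unadjusted p under 0.05 was reached by 0, 0 and 1 member (2.79, 6.43 and 3.3% of all tested genes). DESeq2 on the same libraries also called 0 members in each (0.188, 0.352 and 0.534% of all tested genes). Between isoforms, 0 of 40 passed in apoE3 against apoE2 (0%), apoE4 against apoE2 (0.252%) and apoE4 against apoE3 (0.147%). In each, 0 members had an unadjusted p under 0.05 (2.28, 5.34 and 4.7%) and DESeq2 called 0 (0.0528, 0.968 and 0.405%). The study's own criterion, a change of at least 2-fold with an unadjusted p under 0.05, was met by 0 members with apoE2 (0.722% of all tested genes in either direction), 0 with apoE3 (1.96%) and 1 with apoE4 (1.15%), which was Ifi35, and by 0 members in apoE3 against apoE2 (0.687%), apoE4 against apoE2 (1.3%) and apoE4 against apoE3 (1.25%).

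Libraries of the same number deviated together, so the same fit was also made with the replicate number as a block, that is, comparing treatments within numbers. At an adjusted p under 0.05, 7 of 40 members were then higher with apoE4 than in the control (Tapbp, Irf7, Ifi35, Trim25, Eif2ak2, Bst2 and Isg15; 3.18% of all tested genes were higher) and 0 lower (0.129%). With apoE3, 4 were higher (Gbp7, Ifit2, Irf1 and B2m; 7.95%) and 0 lower (3.73%), so that the members' share was little above that of all tested genes. With apoE2, 0 were higher (1.17%) or lower (0.552%), with 1 member at an unadjusted p under 0.05 (13.3%) and 0 calls by DESeq2 with the block (4.16%), while 1 member (H2-K1) was called without apoE2 replicate 4 (4.97%). With the block the medians of the log2 fold change were 0.15, 0.38 and 0.82 with apoE2, apoE3 and apoE4. Without control replicate 1 they were -0.07, 0.18 and 0.54. The apoE2 median was also -0.07 without apoE2 replicate 1, 0.26, 0.25 and 0.26 without control replicates 2, 3 and 4 and 0.46 without apoE2 replicate 4. By the study's criterion 11 members were higher with apoE4 in the blocked fit (Irf7, Ifit1, Isg15, Usp18, Oasl2, Oas1a, Mx2, Bst2, Ifi35, Ifi44 and Xaf1; 2.29%), 1 with apoE3 (Gbp7; 3.51%) and 0 with apoE2 (1.02%).

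Pairs of the same number were also compared by counts of members. With apoE4, 40, 25, 39 and 40 of the 40 members were above the control library of the same number in replicates 1, 2, 3 and 4, where 50.1 to 51.7% of all tested genes were. With apoE3 the counts were 40, 29, 26 and 35, and with apoE2 they were 39, 18, 21 and 3. The apoE2 libraries thus stood above the control for nearly all members in replicate 1 and below it in replicate 4. The median log2 difference with apoE4 was 1.57 in replicate 1, 0.10 in replicate 2, 0.58 in replicate 3 and 0.71 in replicate 4, so that the smallest difference was in replicate 2, where the members were lowest. In all 4 pairs, 25 members were higher with apoE4 (14.9% of all tested genes), 20 with apoE3 (18.6%) and 1, Dtx3l, with apoE2 (11.7%).

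**Figure D4:**
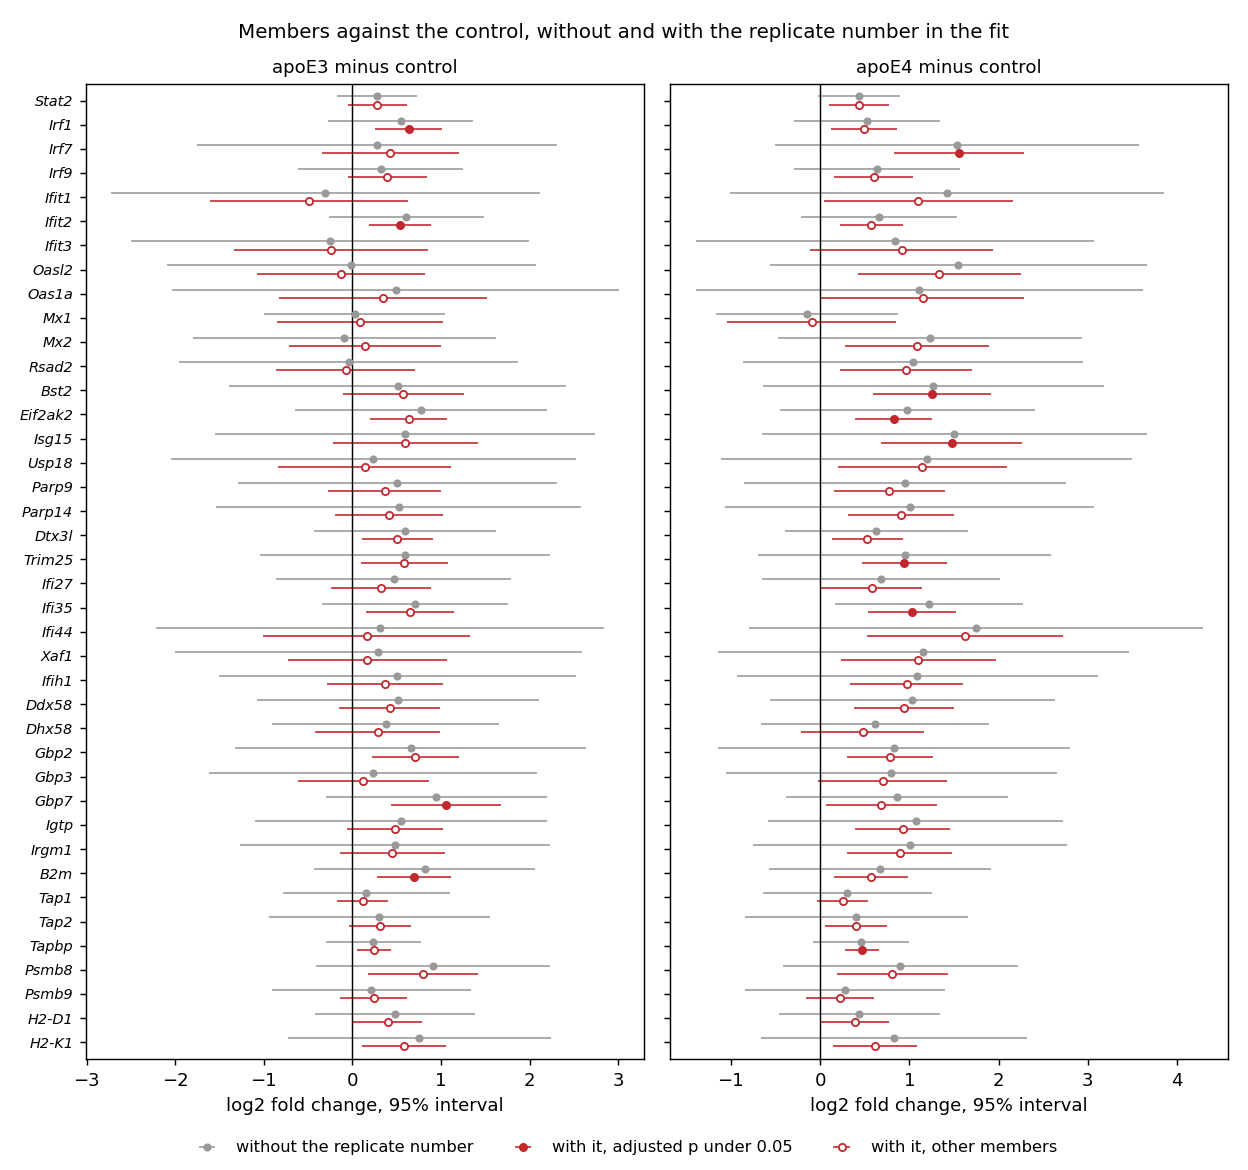
Log2 fold change of each of the 40 genes with its 95% interval, with apoE3 (left) and apoE4 (right) against the control, in grey without and in red with the replicate number in the fit, and filled red where the adjusted p with it was under 0.05. With apoE4, 39 of 40 grey points lie above 0 with wide intervals, and 7 red points are filled.

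Of the 4 transcription factors, Stat2 and its partner Irf9 carry the signal from the receptor to the genes. Irf7, which drives a second round of interferon transcription (chr7:141262706-141266481, minus strand), had 1.59, 0.201, 1.15 and 4.76 CPM in the control, 6.48, 0.458, 1.8 and 3.07 with apoE2, 2.28, 0.573, 1.52 and 4.98 with apoE3 and 8.6, 0.94, 2.49 and 10.2 with apoE4 in replicates 1 to 4. Its apoE4 level was above the control in each pair, and the groups overlapped, with replicate 2 low in all 4 treatments. The log2 fold change with apoE4 was 1.53 ± 0.96 (SE) without the block (adjusted p = 1.0) and 1.56 ± 0.34 with it (adjusted p = 0.020). Irf9, the DNA-binding partner of Stat2, had 17.2, 14.5, 13.8 and 39.8 CPM in the control, 33.5, 14.3, 15.8 and 26.6 with apoE2, 26.8, 20.5, 20.9 and 38.1 with apoE3 and 50.9, 15.1, 21.3 and 45.5 with apoE4. Each apoE4 library was above its control, least in replicate 2. Its log2 fold change was 0.64 ± 0.44, and 0.60 ± 0.21 with the block (adjusted p = 0.156). Irf1, which acts downstream of interferon gamma and of other signals and holds a GAS-type palindrome in its window, had 9.76, 6.91, 4.85 and 13.5 CPM in the control, 9.22, 5.88, 6.89 and 12.5 with apoE2, 12.4, 13.3, 9.1 and 16.3 with apoE3 and 15.6, 7.29, 7.24 and 20.5 with apoE4. It was higher with apoE3 in the blocked fit, by 0.63 ± 0.18 on the log2 scale (adjusted p = 0.0303), with each apoE3 library above its control. Stat2 had 17.1, 26.1, 16.8 and 22.3 CPM in the control, 18.8, 23.1, 18.5 and 23.6 with apoE2, 19.5, 28.9, 21.8 and 29.7 with apoE3 and 35.7, 23.1, 19.4 and 33.2 with apoE4. Its replicate 2 library was the highest of the control, and its log2 fold change with apoE4 was 0.44 ± 0.21 (adjusted p = 1.0) and 0.43 ± 0.16 with the block (adjusted p = 0.177).

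In edgeR on all 16 libraries none of the 3 RNA sensors passed an adjusted p under 0.05 in any comparison, with or without the block, and 2 of 3 had an unadjusted p under 0.05 with apoE4 in the blocked edgeR fit, as 16.6% of all tested genes had. DESeq2 with the block called Ddx58 (adjusted p = 0.0142) and Ifih1 (adjusted p = 0.0397) with apoE4, where it called 5.61% of all tested genes, and in blocked edgeR fits Ddx58 passed with apoE4 without apoE2 replicate 1, apoE2 replicate 4 or apoE3 replicate 4, and Ifih1 without apoE2 replicate 1 or 4. Against apoE2, Ifih1 passed without control replicate 1, apoE2 replicate 1 or all libraries of replicate 1. Ddx58, or RIG-I, which recognizes viral RNA ends, had 7.58, 2.13, 7.11 and 14.9 CPM in the control, 20.5, 3.44, 6.39 and 10.1 with apoE2, 12.5, 3.24, 5.9 and 23.9 with apoE3 and 23, 3.96, 9.73 and 28.4 with apoE4. The apoE4 library was the highest of the 4 treatments in replicates 1 to 4, but replicate 2 with apoE4 was below each control library of the other numbers. With apoE4 its log2 fold change was 1.03 ± 0.75 without and 0.94 ± 0.26 with the block (adjusted p = 0.0688). Ifih1, or MDA5, which binds long double-stranded RNA, ranged from 0.491 to 13.7 CPM and Dhx58, or LGP2, from 0.267 to 2.64 CPM.

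Of the 10 antiviral effectors, 9 had a log2 fold change above 0 with apoE4, with a median of 1.08, and Bst2 and Eif2ak2 passed in the blocked fit. Bst2, or tetherin, which holds virus particles at the cell surface and carries 2 overlapping repeats in the window printed above, had 2.36, 0.442, 2.13 and 5.86 CPM in the control, 7.6, 0.611, 1.99 and 3.99 with apoE2, 3.65, 0.86, 2.89 and 8.0 with apoE3 and 7.92, 0.769, 5.86 and 11.4 with apoE4. Each apoE4 value was above the control and apoE2 values of the same number. With the block it was higher with apoE4 by 1.25 ± 0.31 on the log2 scale (adjusted p = 0.037; 1.27 ± 0.89 without the block). Eif2ak2, or PKR, a kinase that stops translation when it meets double-stranded RNA, had 20.3, 7.76, 17.6 and 31.8 CPM in the control, 51.5, 7.9, 20.2 and 29.5 with apoE2, 42.5, 10.3, 19.7 and 59.8 with apoE3 and 50.3, 9.82, 26.9 and 65.6 with apoE4. Each apoE4 library was above the control of its number, and replicates 1 and 4 were above replicates 2 and 3 in each treatment. With the block its log2 fold change was 0.83 ± 0.20 with apoE4 (adjusted p = 0.0357), 0.64 ± 0.20 with apoE3 (adjusted p = 0.0547) and 0.39 ± 0.20 with apoE2 (adjusted p = 0.449). Ifit2, an RNA-binding relative of Ifit1, had 14.9, 9.57, 9.66 and 16.2 CPM in the control, 24.1, 10.3, 10.3 and 16 with apoE2, 24.7, 11.4, 12.1 and 28.8 with apoE3 and 21.5, 10.3, 13.8 and 33.8 with apoE4. Each apoE3 library was above its control, and it was the one effector higher with apoE3 in the blocked fit, by 0.54 ± 0.17 (adjusted p = 0.0483), and with apoE4 its value was 0.57 ± 0.16 (adjusted p = 0.0749).

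Ifit1 and Oasl2, named here after their values were seen, varied widely among the effectors. Ifit1 had 3.72, 1.73, 7.32 and 20.1 CPM in the control, 23.4, 0.382, 4.48 and 9.07 with apoE2, 5.02, 0.778, 4.26 and 16.7 with apoE3 and 36.8, 1.31, 11 and 39 with apoE4. In replicate 1 the apoE2 and apoE4 libraries stood far above the control and apoE3 libraries, and in replicate 4 the apoE2 library was the lowest. Its log2 fold change was 1.42 ± 1.14 with apoE4 and -0.30 ± 1.13 with apoE3, neither past the test. Oasl2, of the oligoadenylate synthetase family, had 4.31, 2.05, 6.0 and 19.5 CPM in the control, 22.7, 1.3, 4.78 and 8.87 with apoE2, 8.07, 1.35, 4.64 and 17.7 with apoE3 and 43.4, 1.99, 16 and 31.7 with apoE4, with the same split in replicate 1. Mx1 ranged only from 0.227 to 0.957 CPM, and its replicate 4 libraries overlapped those of replicate 2, while its neighbour Mx2 ranged from 0.344 to 8.12 CPM. Ifit3, Oas1a and Rsad2, the last of these also called viperin, ranged from 0.281 to 11.1, 0.0402 to 5.13 and 0.305 to 8.79 CPM.

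Among the 6 genes of ISG15, ubiquitin and ADP-ribosylation, all 6 had a log2 fold change above 0 with each isoform, with medians of 0.27, 0.56 and 0.98 with apoE2, apoE3 and apoE4. Isg15, a ubiquitin-like protein that is attached to other proteins and has 3 overlapping repeats in its window (chr4:156199424-156200818, minus strand), had 2.13, 0.322, 1.46 and 5.6 CPM in the control, 6.62, 0.458, 1.76 and 2.46 with apoE2, 3.65, 0.491, 2.06 and 8.19 with apoE3 and 12.4, 0.541, 4.92 and 9.1 with apoE4. Each apoE4 value was above those of the same number in all other treatments, and all replicate 2 values were low, at 0.322 to 0.541 CPM. The log2 fold change with apoE4 was 1.5 ± 1.01 without the block (adjusted p = 1.0) and 1.47 ± 0.37 with it (adjusted p = 0.0417). Trim25, a ubiquitin ligase that activates RIG-I, had 3.45, 0.965, 2.79 and 8.06 CPM in the control, 8.8, 1.15, 3.1 and 5.74 with apoE2, 7.0, 1.6, 3.35 and 11.1 with apoE3 and 10.7, 1.71, 5.14 and 11.9 with apoE4. It too was highest with apoE4 within each number. It was higher with apoE4 by 0.95 ± 0.22 with the block (adjusted p = 0.0316). Dtx3l, a ubiquitin ligase that works with Parp9, had 5.99, 3.86, 5.37 and 9.42 CPM in the control, 14, 4.39, 7.5 and 10.2 with apoE2, 12.2, 4.42, 5.94 and 14.9 with apoE3 and 14.6, 3.7, 7.63 and 12.3 with apoE4. This was the one member above the control in all 4 pairs with apoE2, and its log2 fold change there was 0.49 ± 0.19 with the block (adjusted p = 0.241). Usp18, which removes Isg15 from proteins, ranged from 0.491 to 18.1 CPM, and Parp9 and Parp14 from 1.15 to 20.3 and 0.482 to 13.6 CPM.

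The 5 interferon-inducible GTPases attack membranes around intracellular microbes, and all 5 had log2 fold changes above 0 with each isoform. Gbp7 had 4.31, 2.65, 4.99 and 9.68 CPM in the control, 8.03, 2.48, 4.55 and 7.98 with apoE2, 9.97, 8.03, 7.46 and 16.3 with apoE3 and 10.8, 1.96, 6.69 and 20.02 with apoE4. With apoE3 it was above the control in each pair and had its largest ratio to the control in replicate 2, where apoE4 was below the control. It was higher with apoE3 by 1.05 ± 0.29 with the block (adjusted p = 0.0304), against 0.68 ± 0.29 with apoE4 (adjusted p = 0.254). A transcript on the same strand, Gm43802, overlaps 11.3% of its exon length. Gbp2 had 3.41, 1.17, 3.63 and 15.3 CPM in the control, 9.36, 1.56, 4.71 and 11.7 with apoE2, 9.82, 1.97, 4.49 and 20.8 with apoE3 and 9.07, 1.65, 5.25 and 25.7 with apoE4, and its log2 fold changes with the block were 0.71 ± 0.23 with apoE3 (adjusted p = 0.0565) and 0.79 ± 0.23 with apoE4 (adjusted p = 0.0739). Replicate 4 was above the other numbers in each treatment. Gbp3, Igtp and Irgm1 ranged from 1.03 to 17.2, 1.41 to 16.4 and 3.18 to 45.3 CPM.

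Ifi35 was the one gene of the 40 to meet the study's criterion without the block. Its product, an interferon-induced leucine zipper protein, is encoded at chr11:101448407-101458698, plus strand, and the libraries had 2.91, 2.49, 3.07 and 4.92 CPM in the control, 8.03, 2.21, 3.67 and 6.66 with apoE2, 7.15, 3.32, 4.03 and 7.41 with apoE3 and 10.2, 2.65, 5.14 and 13.2 with apoE4. Each apoE4 value was above the control of the same number, least in replicate 2, and the groups overlapped. The log2 fold change with apoE4 was 1.22 ± 0.49 (SE; unadjusted p = 0.0266, adjusted p = 1.0) and 1.03 ± 0.23 with the block (adjusted p = 0.0222). Without the block, the criterion was no longer met once control replicate 1, 2 or 3 or apoE4 replicate 1 or 4 was left out. Ifi27 had 22.2, 17.7, 23.9 and 60.2 CPM in the control, 66.1, 13.1, 26.8 and 39.6 with apoE2, 38.1, 14.7, 28.8 and 89.8 with apoE3 and 57.9, 16.3, 38.3 and 86.7 with apoE4, and its log2 fold change with apoE4 was 0.58 ± 0.26 with the block (adjusted p = 0.287). Its highest values were those of replicate 4 with apoE3 and apoE4, and its lowest those of replicate 2. Xaf1, an interferon-inducible binding partner of XIAP, ranged from 0.737 to 21.5 CPM.

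**Figure D5:**
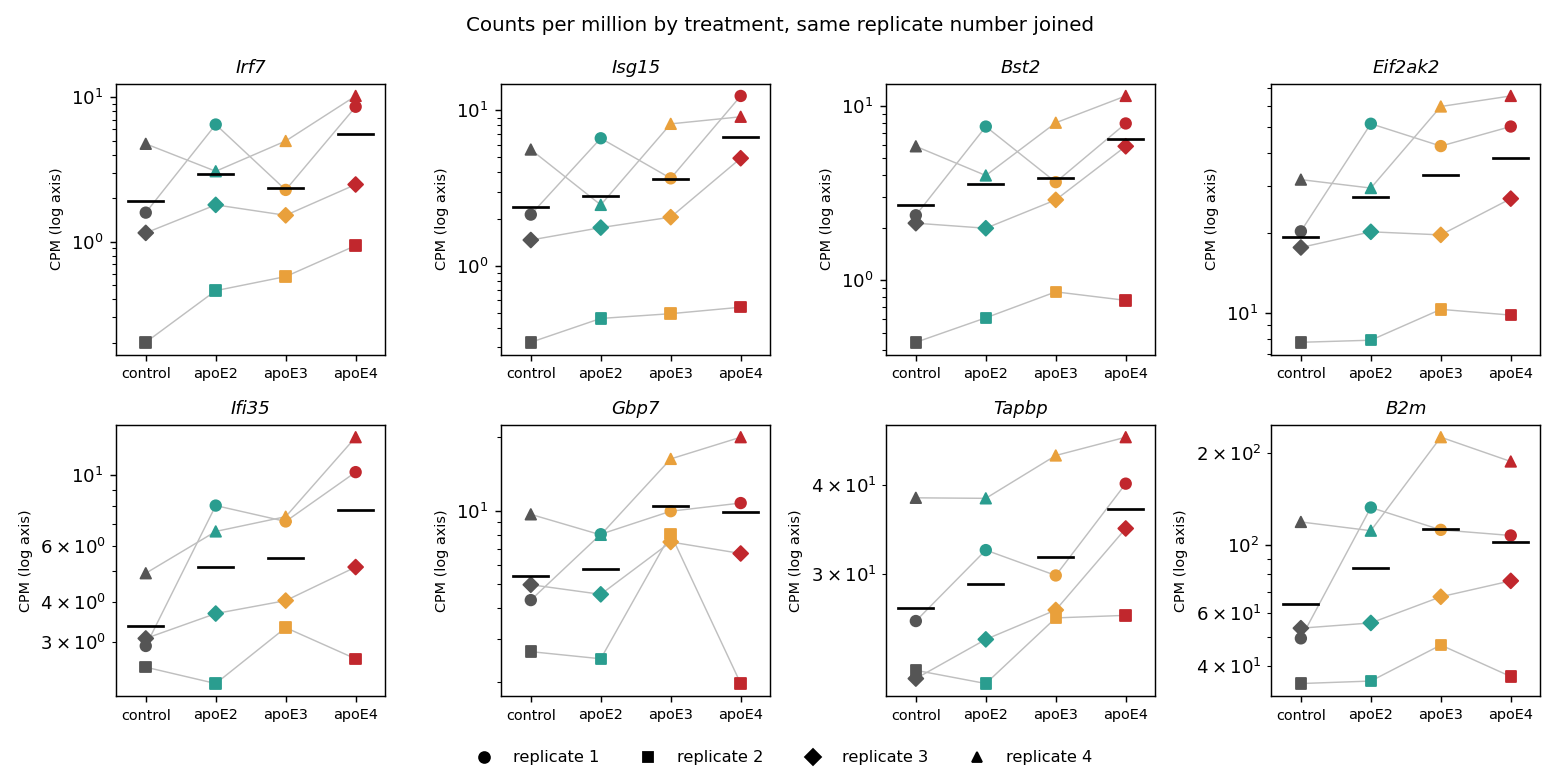
CPM on a log axis of 8 members in each library, by treatment, with grey lines joining libraries of the same replicate number and a black bar at the mean of each group (n = 4). For Irf7, Isg15, Bst2, Eif2ak2, Ifi35, Tapbp and B2m each apoE4 library lies above the control library of its number, and for Gbp7 each apoE3 library does.

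Class I presentation genes had smaller fold changes than the antiviral genes with apoE4, with median log2 fold changes of 0.14, 0.39 and 0.45 with apoE2, apoE3 and apoE4, and all 8 were above 0 with each isoform. Tapbp had 25.7, 22, 21.4 and 38.3 CPM in the control, 32.4, 21, 24.3 and 38.3 with apoE2, 29.8, 26, 26.7 and 44 with apoE3 and 40.1, 26.2, 34.7 and 46.7 with apoE4. With apoE4 each library was above the library of the same number in the control, apoE2 and apoE3 groups. The log2 fold change against the control was 0.46 ± 0.25 without the block (adjusted p = 1.0) and 0.47 ± 0.09 with it (adjusted p = 0.00883), the smallest of the 40 genes in that fit. B2m had 49.4, 35.1, 53.3 and 119 CPM in the control, 132, 35.8, 55.5 and 111 with apoE2, 112, 47, 67.6 and 225 with apoE3 and 107, 37, 76.2 and 187 with apoE4. Each apoE3 library was above its control, and the highest value was that of replicate 4 with apoE3. It was higher with apoE3 by 0.70 ± 0.20 with the block (adjusted p = 0.0325), while with apoE4 the value was 0.57 ± 0.20 (adjusted p = 0.148). Psmb8, an interferon-inducible subunit of the immunoproteasome, had 1.32, 0.844, 0.941 and 2.46 CPM in the control, 3.03, 0.954, 1.03 and 2.01 with apoE2, 3.04, 0.737, 1.79 and 4.92 with apoE3 and 2.84, 0.769, 2.16 and 4.62 with apoE4. Its log2 fold change with apoE3 was 0.91 ± 0.62 without the block (adjusted p = 0.806), and replicate 4 was the highest in each treatment but apoE2. The heavy chains H2-D1 and H2-K1 ranged from 64.3 to 241 and 12.5 to 118 CPM, the peptide transporter subunits Tap1 and Tap2 from 10.1 to 31.7 and 3.09 to 19.1, and Psmb9 from 1.78 to 7.73 CPM.

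Single libraries decided many of the blocked calls, in fits chosen after the data had been seen. Of the 7 members higher with apoE4, 0 remained past the test without control replicate 1, and the count of members called was 1 without apoE4 replicate 1 or 4, 2 without control replicate 3, 3 without apoE4 replicate 3 and 4 without control replicate 2 or 4. It was 10 without apoE4 replicate 2 (3.12% of all tested genes called in either direction), 18 without apoE2 replicate 4 (5.82%) and 19 without apoE2 replicate 1 (3.81%), and over these 16 fits the share of all tested genes called was 1.29 to 5.82%. Tapbp stayed past the test in 15 of 16 such fits, Irf7 and Ifi35 in 12, Trim25 in 10, Eif2ak2 in 9 and Isg15 and Bst2 in 7. The apoE3 calls stayed in 12 of 16 for B2m, 11 for Irf1 and Gbp7 and 5 for Ifit2, and Tapbp against apoE2 in 11. Leaving out the 4 libraries of a number gave 0 calls without replicate 1 (141 of 17445 genes called) or 3 (187 of 16802). It gave 3 without replicate 2 (397 of 16571) and 5 without replicate 4 (524 of 17257). For apoE3 the count of 4 went to 0 without control replicate 1 or 4, to 1 without apoE3 replicate 1 or 2 and to 2 without control replicate 3 or apoE3 replicate 3 or 4. It went to 6 without apoE2 replicate 1 (12.2% of all tested genes) and to 8 without apoE2 replicate 4 (15.9%), counts near that background. The share of all tested genes over the 16 fits was 4.29 to 15.9%. Leaving out all libraries of replicate 1 or 3 gave 0 (420 of 17445 and 777 of 16802 genes called).

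Between isoforms the median over all 16 libraries without the block was above 0 for apoE4 against apoE2 and against apoE3. No member passed the test without the block, and 1 passed with it. The median log2 fold change was 0.63 in apoE4 against apoE2 (39 of 40 above 0), 0.40 in apoE4 against apoE3 (34 of 40) and 0.24 in apoE3 against apoE2 (33 of 40). Without the block these medians moved with single libraries, and leaving 1 out also unbalances the replicate numbers between groups. Without apoE4 replicate 4 the median was 0.22 against apoE2 and 0.0096 against apoE3. Against apoE2 it was 0.37 without apoE2 replicate 2, 0.98 without apoE4 replicate 2 and 1.06 without apoE2 replicate 1, and against apoE3 it was 0.17, 0.21 and 0.92 without apoE3 replicate 2, 3 or 4 and 0.22 and 0.75 without apoE4 replicate 1 or 2. The apoE3 against apoE2 median turned to -0.31 without apoE3 replicate 4 and -0.06 without apoE2 replicate 2. It was 0.077 without apoE2 replicate 3, 0.39 and 0.50 without apoE3 replicates 3 and 2 and 0.69 without apoE2 replicate 1. The blocked medians were 0.58 in apoE4 against apoE2, 0.37 in apoE4 against apoE3 and 0.19 in apoE3 against apoE2. Without apoE4 replicate 4 the blocked apoE4 medians were 0.46 against apoE2 and 0.25 against apoE3. Against apoE2 the apoE4 median was 0.90 without apoE2 replicate 1 and 0.36 without apoE2 replicate 4. For apoE3 against apoE2 it was 0.10 without apoE3 replicate 4, -0.09 without apoE2 replicate 4 and 0.51 without apoE2 replicate 1. With the block, 1 member was higher with apoE4 than with apoE2 (Tapbp, 0.36 ± 0.09, adjusted p = 0.0329; 2.61% of all tested genes) and 0 lower (1.84%). In apoE4 against apoE3, 0 were higher (1.07%) or lower (0.693%), with 12 members at an unadjusted p under 0.05 (16.3% of all tested genes) and 1 call by DESeq2 with the block (4.11%). That count was 4 without apoE2 replicate 1 (Ifi44, Ifit1, Oasl2 and Rsad2; 1.75%), 2 without control replicate 1 (Ifit1 and Oasl2; 1.73%) and 2 without apoE2 replicate 4 (Irf7 and Oasl2; 2.59%). In apoE3 against apoE2, 0 were higher (0.716%) or lower (0.599%), with 2 members at an unadjusted p under 0.05 (15.9%) and 2 calls by DESeq2 with the block (4.31%). The study's criterion with the block was met by 5 members in apoE4 against apoE2 (Ifit1, Isg15, Oasl2, Mx2 and Rsad2; 1.5%), by 7 in apoE4 against apoE3 (Irf7, Ifit1, Ifit3, Usp18, Oasl2, Rsad2 and Ifi44; 1.33%) and by 0 in apoE3 against apoE2 (0.98%), all of them higher.

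The role groups differed in how apoE4 and apoE3 compared. The 10 antiviral effectors had a median log2 fold change of 0.92 in apoE4 against apoE3, and 9 of 10 were above 0. The 8 class I genes had a median of 0.07 in the same comparison, with 5 of 8 above 0. These differences between role groups were not tested. Calls between apoE4 and apoE2 also depended on single libraries. The apoE2 library of replicate 1 had the highest mean of the 40 genes among the apoE2 libraries, and without it 20 members were higher with apoE4 than with apoE2 at an adjusted p under 0.05 in the blocked fit (4.19% of all tested genes called in either direction). Without all libraries of replicate 1 the count was 12 (2.4%), without those of replicate 2, 3 or 4 it was 0, and it was 0 without apoE2 replicate 2, 3 or 4 or apoE4 replicate 1 or 3, 4 without apoE4 replicate 2 (5.5%) and 5 without control replicate 1 (4.14%).

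Beside these differences, marker sums moved between treatments. The astrocyte sum in replicates 1 to 4 was 1328, 528, 1401 and 2593 CPM in the control, 2632, 748, 1911 and 2507 with apoE2, 3874, 816, 2412 and 6113 with apoE3 and 2592, 715, 2277 and 4802 with apoE4. It was above the control in all 4 pairs with apoE3 and apoE4 and in 3 of 4 with apoE2, and higher with apoE3 than with apoE4 in each pair. The microglia sum was 25.7, 26.2, 15.3 and 61.8 CPM in the control, 42.7, 30.1, 19.4 and 49.6 with apoE2, 37.4, 24.7, 19 and 93.9 with apoE3 and 34.8, 26.6, 21 and 74.8 with apoE4, above the control in all 4 pairs with apoE4 and in 3 of 4 with apoE2 and with apoE3. Each other non-neuronal sum was above the control in all 4 pairs with apoE3 and with apoE4, and the endothelial sum also with apoE2. The mural and fibroblast sum was 90.7, 24.9, 24.7 and 162 CPM in the control and 151, 24, 22.2 and 108 with apoE2. It was 158, 26.9, 26.9 and 306 with apoE3 and 165, 25.9, 44.3 and 266 with apoE4. The choroid plexus and ependyma sum was 105, 27.4, 85.5 and 206 CPM in the control and 132, 35.2, 101 and 161 with apoE2. It was 157, 33.4, 116 and 355 with apoE3 and 147, 30.1, 97.4 and 255 with apoE4. For oligodendrocyte lineage markers the sum was 426, 107, 183 and 438 CPM in the control and 824, 120, 230 and 332 with apoE2. It was 845, 139, 257 and 787 with apoE3 and 529, 109.7, 226 and 676 with apoE4. The endothelial sum was low, at 1.32, 1.13, 1.71 and 1.83 CPM in the control and 1.97, 1.98, 2.26 and 1.91 with apoE2. It was 3.5, 1.31, 2.02 and 3.67 with apoE3 and 3.66, 1.51, 2.1 and 4.07 with apoE4. The neuron sum was 4986, 6333, 6819 and 4030 CPM in the control and 4794, 6233, 7273 and 4406 with apoE2. It was 4185, 6293, 6613 and 2876 with apoE3, below the control in all 4 pairs. With apoE4 it was 4725, 6685, 6574 and 3328, lower than the control in replicates 1, 3 and 4 and higher in replicate 2. With apoE4 the astrocyte, oligodendrocyte lineage and choroid plexus and ependyma sums were below those with apoE3 in each pair. The endothelial sum was above it in each pair, and the microglia and mural and fibroblast sums went both ways. The part of these cells in the differences between treatments was not tested.

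Genes of the pathway that are not on the list were read from lists written for this purpose. Interferon transcripts were nearly absent. Of 11 interferon genes, 6 (Ifna1, Ifna2, Ifna4, Ifna5, Ifnz and Ifnl3) had 0 reads in all 16 libraries, which allows up to 0.00826 CPM over the 363021129 gene reads (3 counts, counting error only), and the other 5, among them Ifnb1 with 3 reads and Ifng with 5, had at most 5 reads in all. The receptors and kinases were present, and 12 of 12 were tested. The type I receptor chains Ifnar1 and Ifnar2 had 46.5 to 69.2 and 5.26 to 12.7 CPM, and Jak1 had 159.9 to 262. Without the block no gene of this list passed an adjusted p under 0.05 in a comparison with the control. With it, Socs3, the feedback inhibitor of cytokine signaling, was higher with all 3 isoforms, by 0.92 ± 0.20 with apoE2 (adjusted p = 0.0351), 2.05 ± 0.20 with apoE3 (adjusted p = 6.6e-05) and 0.96 ± 0.20 with apoE4 (adjusted p = 0.016), and Ifnar2, Ifngr1 and Jak1 were higher with apoE3. These are 1, 4 and 1 of 12 genes with apoE2, apoE3 and apoE4, where 1.17%, 7.95% and 3.18% of all tested genes were higher.

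Of the 14 sensors and adaptors upstream of interferon, 11 were tested, and 10 of 11 had log2 fold changes above 0 with apoE3 and with apoE4. Without the block none passed an adjusted p under 0.05 against the control. Tmem173, or STING, which signals cytosolic DNA, had 0.772, 0.0804, 0.453 and 0.262 CPM in the control and 1.83, 0.573, 1.41 and 3.8 with apoE3, a difference of 2.18 ± 0.39 with the block (adjusted p = 0.00321). Tlr7, a sensor of single-stranded RNA, had 0.136, 0.161, 0.174 and 0.209 CPM in the control and 0.685, 0.328, 0.875 and 1.05 with apoE3, with no overlap, and differed by 2.02 ± 0.42 with the block (adjusted p = 0.00684). Mavs, the adaptor of RIG-I and MDA5, was higher with apoE3 by 0.63 ± 0.17 (adjusted p = 0.0292), which makes 3 of 11 against 7.95% of all tested genes. With apoE4 none of the 11 passed with the block, though Tlr7 met the study's criterion without it (1.42 ± 0.50, adjusted p = 0.973). Tmem173 and Tlr7 had few reads, so that their ratios are imprecise.

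A further 50 interferon-stimulated genes were listed. Of the 43 tested, 42 had a log2 fold change above 0 with apoE4, with a median of 1.03, against 36 with apoE3 (median 0.51) and 29 with apoE2 (median 0.27), and 0 passed an adjusted p under 0.05 without the block in any of the 3. With the block, 8 passed with apoE4 (Ifi204, Rnf213, Trim30a, Gbp5, Cxcl10, Ube2l6, Ifi47 and Helz2), 5 with apoE3 (Ifitm2, Ifi202b, Ifi204, Ube2l6 and Pml) and 0 with apoE2 (5 of 43 at an unadjusted p under 0.05, against 13.3% of all tested genes), all of them higher, where 3.18%, 7.95% and 1.17% of all tested genes were higher. The count with apoE3 is near that background. Cxcl10, a chemokine that draws T cells, had 2.54, 0.201, 1.01 and 4.87 CPM in the control and 5.55, 0.541, 2.16 and 10.3 with apoE4, each above its control, and differed by 1.15 ± 0.27 (adjusted p = 0.0306). Rnf213, a ubiquitin ligase with antimicrobial activity, differed by 1.18 ± 0.24 (adjusted p = 0.0118), and Ifi47, an inducible GTPase, had at most 1.02 CPM in any library. Oas2 met the study's criterion in apoE4 against apoE2 (1.42 ± 0.61) and against apoE3 (1.47 ± 0.62), with adjusted p of 0.855 and 1.0.

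Among 16 other class I genes, 1 was higher with apoE4 in the blocked fit, near the 3.18% of all tested genes. H2-T24, a nonclassical class I heavy chain with close relatives in the same region, had 0.59, 0.884, 1.88 and 0.68 CPM in the control, 0.282, 0.84, 2.22 and 0.305 with apoE2, 0.533, 0.737, 1.86 and 0.918 with apoE3 and 5.01, 2.42, 4.48 and 3.46 with apoE4. The apoE4 values lay above all values of the other groups. Its log2 fold change against the control was 1.91 ± 0.61 without the block (adjusted p = 0.689) and 2.05 ± 0.38 with it (adjusted p = 0.00701). H2-Q6 met the study's criterion with apoE3 (1.09 ± 0.38) and apoE4 (1.25 ± 0.38) and H2-T23 with apoE4 (1.2 ± 0.49), none with an adjusted p under 0.05. Of the 16 genes of this list, all tested, 14 were above 0 with apoE4 and 16 with apoE3, with medians of 0.39 and 0.31. Class II genes, which are expressed mainly by microglia and other professional presenting cells, had medians of -0.03 with apoE4 and -0.13 with apoE3 over 7 tested genes, against 0.15 with apoE2 (5 of 7 above 0), and none passed without the block. With it 1 of 7 passed, H2-Ab1, higher with apoE3 (1.49 ± 0.28, adjusted p = 0.00404; 7.95% of all tested genes were higher) and apoE2 (1.40 ± 0.28, adjusted p = 0.0209; 1.17%).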

How the data were processed

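RNA of 16 samples was sequenced by the authors, aligned to the mouse genome mm10 with STAR and counted per gene with HTSeq, and the deposited values are raw counts per gene symbol. The annotation and the use of strand are not stated. The 5 rows that name no gene (38.4 to 73.7% of a library) entered neither library sizes nor tests. Groups and replicate numbers came from the sample labels. Counts were scaled by TMM, filtered by filterByExpr (minimum count 10, minimum total 15, minimum proportion 0.7) and tested over all 16 libraries with 1 coefficient per group by the quasi-likelihood test of edgeR 4.0.16 in R 4.3.3, with Benjamini-Hochberg adjustment over 17038 genes in each of 6 comparisons. Errors of fold changes are standard errors. Without the block, errors and p-values rest on the spread between libraries of a group. With it they rest on the spread left after differences between replicate numbers. Log2 CPM used a prior count of 2. The fit was tested on simulated data with known changes.

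The replicate number was not a block in the reported fit, since the study's methods name none. Deviations from group means correlated by 0.362 to 0.831 between libraries of the same number over all tested genes (24 pairs), and -0.736 to 0.569 between different numbers (72 pairs). Over all tested genes each same-number value was over 0.1, so the numbers were taken to pair the libraries. Over the 40 members alone the same-number values were 0.0752 to 0.937, lowest in replicate 1, and different numbers reached 0.872. The block was kept as an alternative, and the blocked value stands beside results whose call or count it changes. The alternatives were DESeq2 size factors, no low-count filter, 1 CPM in 8 libraries, DESeq2 1.42.0, the 2 compared groups alone, the block in edgeR and in DESeq2, and each library left out. Blocked fits with libraries left out were chosen later, with values known. The members and lists were chosen with earlier results of these data known. Values in every library were given for members called in any comparison (up to 6 in each), those meeting the study's criterion without the block, the 3 with the smallest p in each control comparison and the highest per kilobase of each role. Others named with such values were chosen after they were seen. Positions and exon lengths are from GENCODE M21 on GRCm38, which matched 95.9% of symbols and all 40 members.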

Additional observations from a re-analysis of the deposited data

Results flagged for a closer look

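No single library stood apart within its group of 4 in the 76 sets checked, of which chance alone would mark about 1 in 20. The sets were those of the mean of the 40 genes and of the 18 members given in every library by the stated rule. Ifit1 and Oasl2, chosen after their values were seen, were not checked. Among the members and the pathway lists, these differences between isoforms passed an adjusted p under 0.05 in the edgeR fit with the replicate block. In apoE4 against apoE2, the log2 difference was 0.36 for Tapbp (adjusted p = 0.0329), 1.04 for Rnf213 (0.0188), 1.43 for Gbp5 (0.00638), 0.54 for Ube2l6 (0.0145), 0.31 for Psme1 (0.0284) and 2.28 for H2-T24 (0.00344), each higher with apoE4 in 4 of 4 pairs. In apoE3 against apoE2 it was 1.13 for Socs3 (0.014) and 0.34 for Psme1 (0.045), each higher with apoE3 in 4 of 4 pairs. In apoE4 against apoE3 it was -1.09 for Socs3 (0.00881), lower in 4 of 4 pairs, and 2.03 for H2-T24 (0.0139), higher in 4 of 4 pairs. Of these genes Tapbp alone is one of the 40, and the cause of these differences was not tested.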

How the results depend on the processing

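Without the replicate block, the count of members at an adjusted p under 0.05 was 0 in each of the 6 comparisons under DESeq2 size factors, no low-count filter, the stricter filter, DESeq2, the 2 groups alone and each library left out (0 to 0). The share of all tested genes called in these fits was at most 0.968%, by DESeq2 in apoE4 against apoE2. With the block, edgeR called 4 with apoE3, 7 with apoE4 and 1 in apoE4 against apoE2, and DESeq2 called 7, 14 and 5 (15.9, 5.61 and 7.29% of all tested genes), and also 2 in apoE3 against apoE2 (4.31%) and 1 in apoE4 against apoE3 (4.11%). By the study's criterion the blocked counts in edgeR were 1 with apoE3, 11 with apoE4, 5 in apoE4 against apoE2 and 7 in apoE4 against apoE3. Of all tested genes, 3.51, 2.29, 1.5 and 1.33% were higher by that criterion. In DESeq2 the counts of members were 1, 10, 5 and 6. Leaving out single libraries without the block moved the criterion count between 0 and 1 with apoE3, 0 and 5 with apoE4, 0 and 2 in apoE4 against apoE2 and 0 and 1 in apoE4 against apoE3. The median log2 fold change then ranged from -0.22 to 0.82 with apoE2, -0.12 to 1.01 with apoE3, 0.45 to 1.51 with apoE4, -0.31 to 0.69 in apoE3 against apoE2, 0.22 to 1.06 in apoE4 against apoE2 and 0.01 to 0.92 in apoE4 against apoE3. With the block, leaving out single libraries gave 0 to 1 calls with apoE2, 0 to 8 with apoE3 and 0 to 19 with apoE4 (18 without apoE2 replicate 4). Between isoforms it gave 0 to 20 in apoE4 against apoE2, 0 to 4 in apoE4 against apoE3 and 0 to 0 in apoE3 against apoE2. Of the 17097 to 17717 genes tested, 59 to 851, 757 to 2714 and 227 to 997 were called against the control. Between isoforms 366 to 940, 102 to 443 and 57 to 278 were called, in the same order. By the criterion the counts of members were 0 to 2 with apoE2, with apoE3 and in apoE3 against apoE2. With apoE4 they were 4 to 19, 0 to 16 and 2 to 10 against control, apoE2 and apoE3. Leaving out a whole replicate number (1, 2, 3 and 4) gave 0, 3, 0 and 3 calls with apoE3, 0, 3, 0 and 5 with apoE4 and 12, 0, 0 and 0 in apoE4 against apoE2. Of the 17445, 16571, 16802 and 17257 genes tested, 420, 1866, 777 and 1473 were called with apoE3. With apoE4 141, 397, 187 and 524 were called, and in apoE4 against apoE2 418, 558, 246 and 479. The criterion counts of members were 4, 13, 12 and 11, 16, 5, 3 and 2, and 3, 7, 3 and 10 in apoE4 against control, apoE2 and apoE3. In DESeq2 with the block and in fits with libraries left out, all tested genes meeting the criterion were not counted, so the criterion counts there have no background. Of the log2 fold changes of named members, 366 of 391 values kept direction and call and 24 passed the test only with the block. Eif2ak2 with apoE2 turned to -0.0066 without apoE2 replicate 1 and ranged to 0.84 over the libraries left out. Values that kept direction also moved in size over single libraries left out without the block. With apoE4, Irf7 ranged from 1.05 to 2.49, Isg15 from 1.03 to 2.36 and Bst2 from 0.84 to 1.97. With apoE3, Psmb8 ranged from 0.40 to 1.33 and B2m from 0.23 to 1.30. The cause of these shifts was not tested. Members with few reads, such as Oas1a, Mx1 and Ifi44, are measured with little precision in replicate 2. Over all 16 libraries the block changed no other call of a member.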
